A study of Mus musculus with 3 samples.

Results

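Semaphorins, plexins, Slits, Robo receptors, netrins, UNC5 receptors, ephrins and Eph receptors are the guidance families first known from growing axons and also used by blood vessels. The members were taken by gene symbol from the probe sets that name 1 gene, which gave 65 genes on 70 probe sets, out of 19938 genes in all. Each gene was represented by its probe set with the highest mean. Neuropilins were left out of the families and appear only among partner genes, and Ephb2 was not analysed here.

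RNA came from endothelial cells of the adult renal medulla, sorted by green fluorescence from male FVB/N mice that carried the transgene Tg(TIE2GFP)287Sato. All 3 arrays belong to 1 group, each from a pool of 2 kidneys, and no untreated or other control group stands beside them. The Tie2 (Tek) promoter drives the fluorescent protein, so the sort takes whatever cells use that promoter and any cells that come along. Nothing in the labels shows whether pools shared animals, but the paper describes the samples of every cell population as biologically independent. The spread between arrays may still be partly technical, and that part was not tested. In bulk samples, fewer cells of a type and less RNA per cell cannot be told apart.

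Guidance ligands and receptors steer the tip of an axon or of a vessel sprout by attraction or repulsion. Class 3 semaphorins are secreted and act through plexins with neuropilin coreceptors, whereas semaphorins of the other classes here are held at the membrane and mostly bind plexins directly. Slits bind Robo receptors, netrins bind UNC5 and DCC receptors, and ephrins bind Eph receptor kinases on the neighbouring cell, with signals in both directions. Ephrin-B2 on arteries and its receptor EphB4 on veins are textbook marks of vessel identity.

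Levels are log2 expression units, and a level in units is 2 raised to that value. They were read against the 100 units (log2 6.64) used in the study as a filter, and against a background limit of log2 7.95 (247 units). The latter is the 95th percentile of 1245 probe sets of olfactory, vomeronasal and bitter taste receptors, genes known mainly from sensory cells. A gene under this limit was not shown to be silent. "Above" and "below" are used of genes whose level differed from a limit by limma (Benjamini-Hochberg adjusted p under 0.05 over all genes). Because probes differ in affinity, no gene's level was ranked against that of another gene.

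All 16 markers listed for endothelium in general, such as Pecam1 and Cdh5, were above the background limit, and the pan-endothelial sum was 71622, 63184 and 64279 units in replicates 1, 2 and 3. Of all genes 52.4% were above that limit, against which the lists of other cells can be read. Above it were 5 of 8 genes of the thick ascending limb, a tubule segment of the medulla, 6 of 12 of the collecting duct, 3 of 12 of the proximal tubule, 3 of 5 of podocytes and 4 of 6 of lymphatic vessels. So were 6 of 12 myeloid genes, 2 of 9 lymphocyte genes, 3 of 5 of red cells and platelets, 4 of 14 of pericytes, smooth muscle and fibroblasts, and 2 of 8 of nerve and Schwann cells. Of the lists for vessel types, 7 of 10 arterial or descending vasa recta genes and 7 of 7 venous or ascending vasa recta genes were above it. Sox17, Emcn and Flt4 each stood in a pair of these endothelial lists. Single genes of the thick ascending limb and myeloid lists, such as Umod (10.50 ± 1.06, SD, n = 3) and H2-Aa (10.90 ± 0.49), were above the limit. Others of the same lists were below it, such as Cldn16 (7.25), Ptprc (6.68), Csf1r (7.54) and Adgre1 (6.18). Which cells gave these RNAs was not tested. No marker was listed at 0.

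The guidance families as a whole stood near the background of all genes. Of the 65 members 62 had 100 units or more in all arrays (95.4%, against 85.4% of all genes), and limma called 62 above 100, against 84.5% of all genes. Above the background limit were 39 members (60%), against 52.4% of all genes. Below it were 22 (33.8%), against 41.5%, and 4 could not be told from it (Efna4, Efna5, Sema4g and Unc5c). In every array 40 members (61.5%) reached the background limit, against 54.8% of all genes. The median level was log2 8.37 over the members and 8.15 over all genes. The families are therefore described below by their single members.

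**Figure D1:**
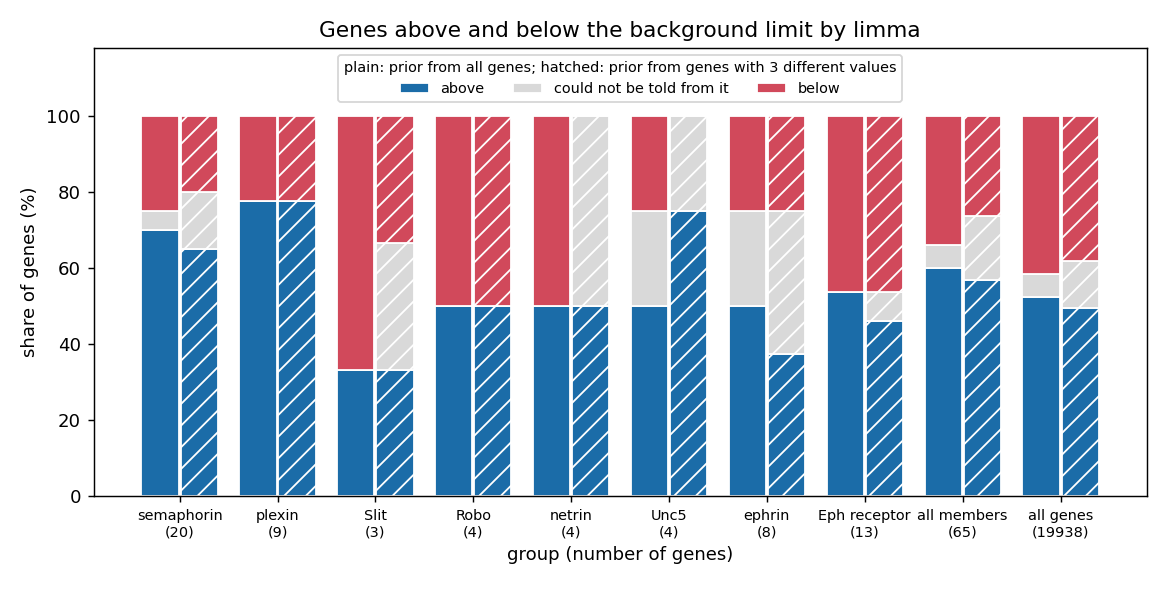
Share of genes (y axis, %) above, below or not told from the background limit by limma for each guidance family, all 65 members and all 19938 genes (x axis, with the number of genes); plain bars use a prior variance from all genes and hatched bars one from genes with 3 different values. Of all members 39 were above the limit in the plain bar and 37 in the hatched one.

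The error behind these calls was uneven. The same value in all 3 arrays was deposited for 30 members (46.2%, against 46.3% of all genes), and 18 more had the same value in a pair of arrays. With no spread, the error of a gene with the same value throughout is likely understated, so its p is not printed here. Where a pair of arrays was equal, the SD could also be very small, and a printed p may then look too precise. When limma's prior variance came only from the genes whose arrays all differed, 37 members were above the limit (49.7% of all genes) and 17 below (38% of all genes). That setting ended the calls of Efnb3, Epha8 and Sema4a above the limit and those of Ntn3, Ntn5, Sema6c, Slit1 and Unc5a below it, while Unc5c was newly called above. It also moved the adjusted p (by limma) of genes with an equal pair. For Robo1 it rose from 3.7e-06 to 0.00268, for Sema3g from 2.57e-05 to 0.000142 and for Ephb4 from 2.01e-06 to 2.98e-05. For Sema3f it fell from 0.000698 to 5.74e-05. Among the marker lists, the same setting left above the limit 2 of 12 proximal tubule, 2 of 5 podocyte, 3 of 6 lymphatic and 4 of 12 myeloid genes. It also left 3 of 14 of pericytes, smooth muscle and fibroblasts and 1 of 8 of nerve and Schwann cells. Arterial or descending vasa recta genes rose to 8 of 10, and the other lists kept their counts. Efna2 and Efna3 were deposited with the same level as each other (7.20 in every array), as were Slit1 and Unc5a (7.80).

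Several semaphorins were above the background limit, both among secreted and among membrane-bound classes. Of 20 semaphorin genes 14 were above (70%, against 52.4% of all genes) and 5 below (25%, against 41.5%), with a median of log2 8.70, against 8.15 over all genes. Sema3d, Sema3f and Sema3g of the secreted class and Sema6a, Sema6d and Sema7a of the membrane-bound classes were among those above.

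Of the 7 secreted class 3 genes, 5 were above the limit. Sema3d, a repellent of endothelial cells, had log2 10.90 in every array (1917 units). Sema3f, a ligand of neuropilin 2 that inhibits vessel growth, had 10.29, 10.07 and 10.07 in replicates 1, 2 and 3 (1133 units, adjusted p = 0.000698 by limma). Replicate 1 was the high one, and every array lay about 2 log2 units over the limit. Sema3g, known from arterial endothelium, had 9.10, 9.10 and 9.08 (546 units, adjusted p = 2.57e-05). Sema3a, the classical collapsin, had 8.79 in every array, and Sema3b had a mean of 8.14, a call lost without replicate 1 (adjusted p = 0.102 by limma) or replicate 3 (0.1). Sema3c, with 6.72 in every array, and Sema3e, the ligand of plexin D1, with 6.72 as well, were below the background limit and just above 100 units.

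The membrane-bound genes were split. In class 4, Sema4c, a ligand of plexin B2, had 9.48, 9.57 and 9.40 (715 units, adjusted p = 0.000609). Sema4d, the ligand of plexin B1, had 8.62 in every array on a probe set annotated with 1 predicted transcript, and its other probe set, annotated with several transcripts, had 8.04, 8.04 and 8.07. Both probe sets lay over the limit. Sema4a had 8.03 in every array, which is 0.08 over the limit. Sema4b (8.23) was above, Sema4f (7.42) below, and Sema4g (7.97) could not be told from it with all arrays, though it was above without replicate 1, where both values left are the same.

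In class 5, Sema5a, which carries thrombospondin repeats, had 7.32, 7.49 and 7.50 and was below the limit (adjusted p = 0.00857), while Sema5b was above it at a mean of 8.79. In class 6, which binds A-type plexins, Sema6a had 11.33, 11.17 and 11.27 (2445 units, adjusted p = 0.000132). All 3 arrays of Sema6a stood close together and over 3 log2 units past the limit. Sema6d had 11.27, 10.60 and 10.65 (1832 units, adjusted p = 0.0036), with replicate 1 apart from the others. Sema6b (9.54 ± 0.15, SD, n = 3) was also above, on a pair of probe sets that carry the same 3 values, and Sema6c at 7.92 was 0.03 under the limit. Sema7a, the lipid-anchored semaphorin, had 10.66, 10.23 and 9.92 (1234 units, adjusted p = 0.00572), and its lowest array was still over the limit by more than the range between arrays (0.74). With only 2 arrays kept, the calls of Sema5a, Sema6d and Sema7a were lost without replicate 2 (adjusted p = 0.106, 0.0659 and 0.0989 by limma) and without replicate 3 (0.0941, 0.0707 and 0.0554), and that of Sema6b without replicate 1 (0.0523) or replicate 3 (0.0551).

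**Figure D2:**
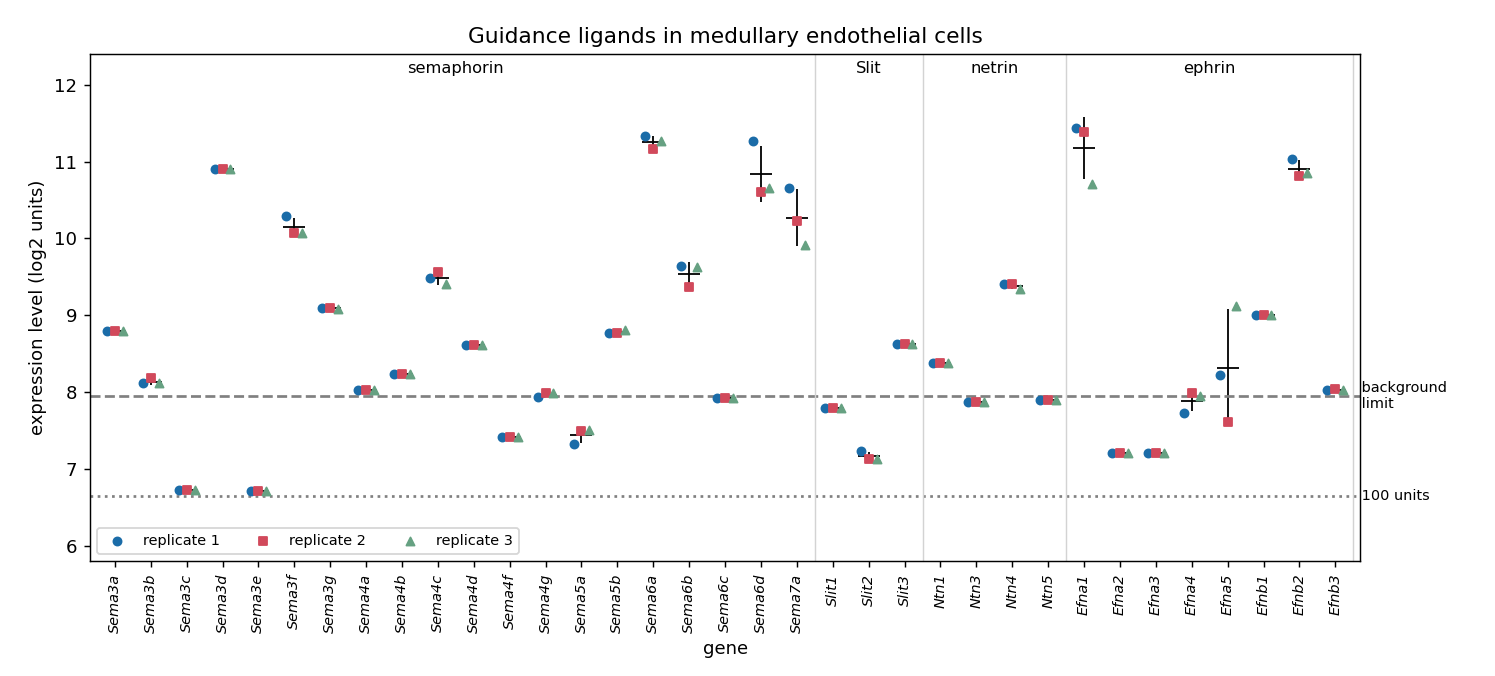
Level (y axis, log2 units) of the 35 ligand genes (x axis) by family, each array drawn as a point beside a bar for the group mean and its SD (n = 3); the dotted line marks 100 units (6.64) and the dashed line the background limit (7.95). Heights of different genes are not to be ranked; Sema3d, Sema6a and Efnb2 lay over the dashed line in every array, whereas Sema3c and Sema3e lay between the lines.

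Plexins were above the limit in 7 of 9 genes (77.8%, against 52.4% of all genes). Plxnd1, the plexin of endothelial cells that reads Sema3e, had 10.97, 10.93 and 10.96 (1983 units, SD 0.02, adjusted p = 1.1e-05), so that the receptor was above the background limit while its ligand Sema3e was below it in these sorted cells. Plxna2 had 10.01, 9.97 and 9.97 (1011 units, adjusted p = 2.23e-05), and Plxna4 had 10.06 in every array. Both are receptors of class 6 semaphorins and, with neuropilins, of class 3. Plxna1 (8.99 in every array) and Plxna3 (8.37) completed the A-type genes, of which 4 of 4 were above.

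Among B-type plexins, Plxnb1, the receptor of Sema4d, had 8.42 in every array and Plxnb2 8.94, and both were above the limit. Plxnb3, a receptor of Sema5a, was below at a mean of 7.75. Plxnc1, the receptor of Sema7a, had 6.58, 6.58 and 6.60 (96.0 units) and was 1 of 3 members under 100 units in every array. Sema7a can also bind integrins of the beta 1 type, and Itgb1 had 12.10 in every array and Itga1 10.16 ± 0.02 (SD, n = 3).

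The Robo genes fell on both sides of the limit, 2 above and 2 below, near the shares of all genes (52.4% and 41.5%). Robo4, the Robo of endothelium, had 11.25, 10.85 and 10.91 (2055 units, adjusted p = 0.00109), and Robo3 had 9.93, 10.04 and 10.84 (1233 units, adjusted p = 0.0104). These neighbouring genes differed in which array was high, replicate 1 for Robo4 and replicate 3 for Robo3. The call of Robo3 was lost without replicate 1 (adjusted p = 0.0993 by limma) or replicate 2 (0.115). Robo1, with 7.51, 7.51 and 7.50, and Robo2, with 7.14, 7.17 and 7.17, the main Slit receptors of axons, were below the limit (adjusted p = 3.7e-06 and 9.92e-05 by limma) and over 100 units in every array.

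Among the Slit ligands only Slit3 was called above the limit, with 8.62 in every array. Slit2 had 7.23, 7.13 and 7.13 and was below (adjusted p = 0.00135), and Slit1 was at 7.80. Slit2 and Slit3 carry within them the microRNA genes Mir218-1 and Mir218-2, on the same strand as the host, and both precursors had probe sets of their own. Mir218-1 (chr5:48223942-48224051, GRCm38.p6) had 6.32, 6.37 and 6.62 and Mir218-2 (chr11:35616816-35616925) had 6.35 in every array. Both precursors were thus below the background limit (adjusted p = 0.0025 for Mir218-1), Mir218-2 also where its host was above. Such probe sets read precursor or host RNA and do not measure the mature microRNA.

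The mature sequences, from RefSeq on GRCm38.p6, are shown because the same 5p arm comes from either host and ROBO1 and ROBO2 are known miR-218 targets. Capitals mark the seed, bases 2 to 8.
mmu-miR-218-5p: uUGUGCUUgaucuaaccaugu
mmu-miR-218-1-3p: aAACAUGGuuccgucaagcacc
mmu-miR-218-2-3p: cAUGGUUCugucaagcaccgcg
The 5p arm is the same from both loci, while the 3p arms differ in sequence and in seed.

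Netrins and UNC5 receptors fell on both sides of the limit, with 2 of 4 genes above it in either family, against 52.4% of all genes. Ntn4, a netrin of vessel basement membranes, had 9.40, 9.40 and 9.34 (667 units, adjusted p = 0.000119) and Ntn1 had 8.38 in every array, and both were above the limit. Ntn3 (7.87) and Ntn5 (7.90) lay within 0.08 under it. Unc5b, the UNC5 receptor of endothelial tip cells, had 8.66 in every array. Unc5c had 9.88, 8.70 and 8.77, and could not be told from the limit (adjusted p = 0.0745) although every array lay over it, replicate 1 far above the others. Unc5d had 8.25, 8.25 and 8.30 on its higher probe set and 7.31, 7.31 and 7.40 on the other, which lay on opposite sides of the limit, so that its call turns with the probe set. Of other netrin receptors, Dcc had 7.30 in every array and was below, while Neo1, which encodes neogenin, had 9.38 and was above.

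**Figure D3:**
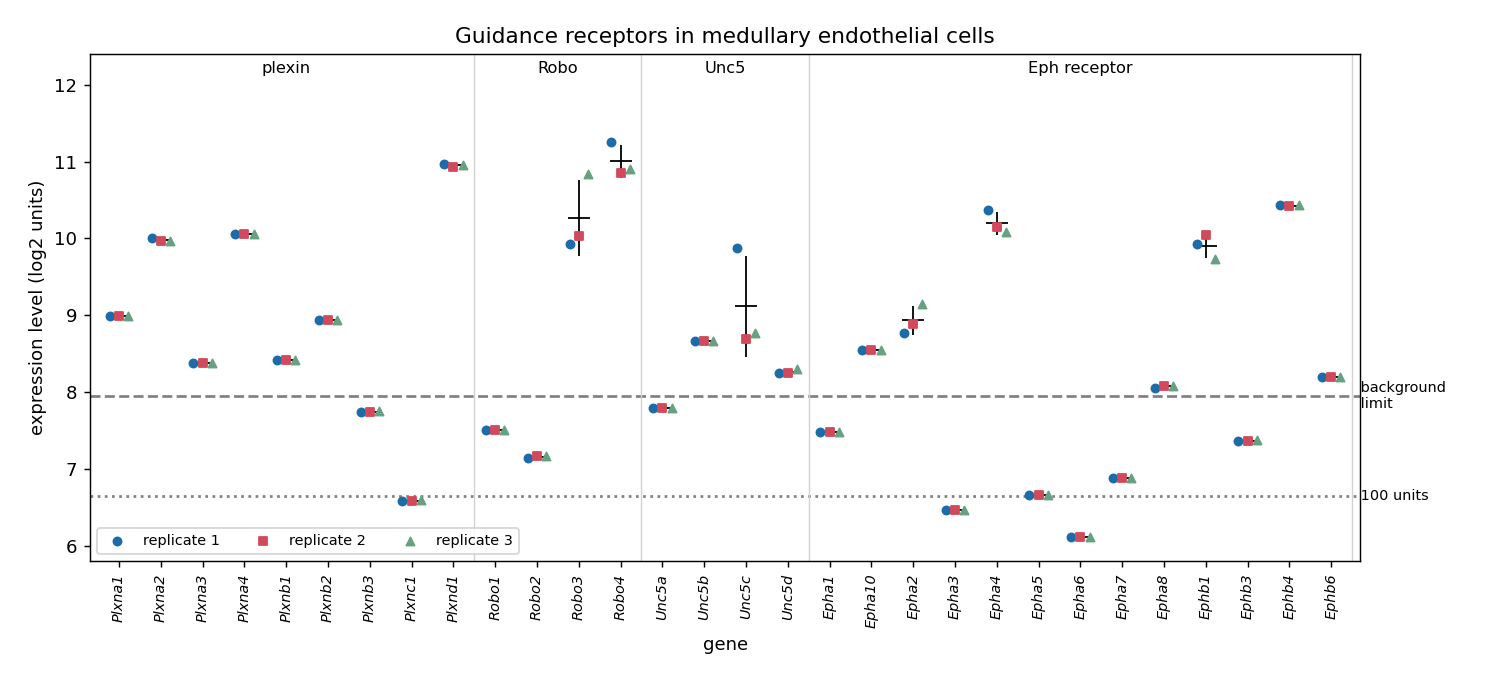
Level (y axis, log2 units) of the 30 receptor genes (x axis) by family, each array drawn as a point beside a bar for the group mean and its SD (n = 3); the dotted line marks 100 units (6.64) and the dashed line the background limit (7.95). Heights of different genes are not to be ranked; Plxnd1, Robo4 and Ephb4 lay over the dashed line in every array, and Plxnc1, Epha3 and Epha6 under the dotted line.

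Of the 8 ephrin genes 4 were above the limit (50%, against 52.4% of all genes), 2 below it and 2 not told from it. Efnb2, the arterial ephrin, had 11.04, 10.81 and 10.85 (1910 units, adjusted p = 0.000363). Its arrays spanned 0.23 and stood almost 3 log2 units past the limit. Efnb1 had 9.01 in every array, and Efnb3 (8.03 ± 0.01, SD, n = 3) was 0.08 over the limit, so that 3 of 3 B-type ephrins were above. Of the 5 A-type genes only Efna1, first found as a gene induced by tumour necrosis factor in endothelial cells, was above, with 11.44, 11.38 and 10.71 (2318 units, adjusted p = 0.00346). That call was lost without replicate 1 (adjusted p = 0.0684 by limma) or replicate 2 (0.0742). Efna2 and Efna3 were below. Efna4 (7.89 ± 0.14) and Efna5, which had 8.22, 7.61 and 9.12, could not be told from the limit (adjusted p = 0.513 and 0.465 by limma). The range of Efna5, 1.51, was the widest of the members.

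Eph receptors were above the limit in 7 of 13 genes (53.8%, about the 52.4% of all genes) and below in 6 (46.2%, against 41.5%). Ephb4, the venous receptor of ephrin-B2, had 10.43, 10.42 and 10.43 (1378 units, SD 0.01, adjusted p = 2.01e-06). The arterial ligand and the venous receptor were thus both above the limit in every array of these pooled cells. Whether the same cells or different vessels carried them was not tested. Ephb1 had 9.92, 10.04 and 9.73 (954 units, adjusted p = 0.00143) on a probe set annotated with a single cDNA, and 8.58 in every array on the probe set annotated with its RefSeq transcripts. On the first, the call was lost without replicate 1 (adjusted p = 0.0523 by limma). Ephb6, a kinase-dead receptor, was at 8.20 and above, and Ephb3 at 7.37 was below.

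Of the 9 EphA genes, 4 were above the limit. Epha4, a receptor for ephrins of both types, had 10.37, 10.14 and 10.08 (1174 units, adjusted p = 0.00095), and Epha2, a receptor of ephrin-A1, had 8.77, 8.89 and 9.14 (489 units, adjusted p = 0.00863). The call of Epha2 was lost without replicate 1 (adjusted p = 0.0744 by limma) or replicate 2 (0.116). Epha10 was at 8.55 and Epha8 at 8.07 ± 0.02, the latter call lost without replicate 2 (0.0849) or replicate 3 (0.0862). Epha1 (7.48), Epha5 (6.66) and Epha7 (6.89), with 1 value each in all arrays, were below. Epha3, at 6.46, 6.47 and 6.46 (88.2 units), and Epha6, at 6.12 in every array (69.4 units), were below 100 units as well.

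Ligand and receptor pairs can be read from these calls. Sema4d with Plxnb1, Sema4c with Plxnb2, Sema6a with Plxna2 and Plxna4, Ntn1 with Unc5b and Neo1, Efna1 with Epha2, and Efnb2 with Ephb4 were above the limit on both sides. Sema3e with Plxnd1, Sema7a with Plxnc1 and Slit3 with Robo1 and Robo2 were split. Sema5a with Plxnb3 and Slit2 with Robo1 and Robo2 were below on both sides. These pairs are examples, and a receptor named here may have other ligands among the members. RNA of a pool does not show which cell carries which partner.

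Partner genes, listed apart from the families, were mostly above the limit. Of 100 measured, 76 were above and 21 below, with a median of log2 8.99, against 52.4% of all genes above. Neuropilins Nrp1 (12.41 ± 0.22, SD, n = 3) and Nrp2 (10.34 ± 0.20) were above it, as was Met, a receptor tyrosine kinase that plexins of the B type can bind (8.93 ± 0.10). The related kinase gene Mst1r, with 7.95 in every array, was called above, a call that was lost with the other prior variance (adjusted p = 0.983). Of 13 semaphorin coreceptors and other receptors 8 were above, and the immune receptors Cd72 (7.08), Havcr1 (6.99) and Timd2 (6.09) were below.

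Of 28 signal transducers of plexins 22 were above. Rnd1, a GTPase that binds plexins, had 8.16 ± 0.01 and its relative Rnd3 10.56 ± 0.67, while Rnd2 (7.95 ± 0.05) could not be told from the limit. The R-Ras gene Rras, a target of the plexin GAP domain, had 10.15 in every array. Farp2 (7.42), Dpysl4 (7.67) and Dpysl5 (7.93) were below, but the call of Dpysl5 was lost with the other prior variance (adjusted p = 0.809). Of 19 netrin, UNC5 and repulsive guidance partners 13 were above, besides Dcc with the cell adhesion genes Dscam (6.92) and Dscaml1 (7.32) below.

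Of 16 Slit and Robo partners 13 were above. The proteoglycan gene Gpc1 had 8.14 in every array, and the Robo GTPase-activating proteins Srgap1, Srgap2 and Srgap3 had 8.49 ± 0.16, 10.68 ± 0.10 and 8.21 ± 0.06. Arhgap39 (7.25), Sdc1 (7.86) and Nell2 (6.61) were below, the call of Sdc1 being lost with the other prior variance (adjusted p = 0.247). Of 24 Eph and ephrin transducers 20 were above, among them Arhgef15, a vascular ephexin, at 10.98 in every array, Ngef at 8.15, Vav2 at 8.42 and Vav3 at 9.83. Chn1 (7.21 ± 0.10), Grip1 (7.50) and Ptpn13 (7.79) were below, and here Ptpn13 lost its call with the other prior variance (adjusted p = 0.067).

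The spread between arrays lay in few members. An SD of 0.1 or more was found in 14 of 65 members (21.5%, against 22.5% of all genes), and one of 0.3 or more in 6 (9.23%, against 6.08%). Replicate 1 was the highest array in 9 of the 14, and in 42.9% of all genes with such an SD. The 6 were Efna5 (SD 0.76), Unc5c (0.66), Robo3 (0.50), Efna1 (0.41), Sema7a (0.37) and Sema6d (0.37).

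They did not share 1 array. Unc5c, Sema7a and Sema6d were highest in replicate 1, by 1.14, 0.58 and 0.64 log2 units over the mean of the other arrays. Efna1 was lowest in replicate 3, by 0.70, and Efna5 and Robo3 were highest there, by 1.20 and 0.86.

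Markers of other cells also moved between arrays, and their lists peaked in different ones. The thick ascending limb genes summed to 5997, 3659 and 2808 units. Of the 8 genes, Umod (11.61, 10.40 and 9.49), Slc12a1 (9.68, 8.07 and 7.81) and Egf (8.76, 8.16 and 8.16) were highest in replicate 1, as were Unc5c, Sema7a and Sema6d. Cldn10 (8.76, 9.08 and 8.50) was highest in replicate 2, Cldn16 (7.07, 7.34 and 7.34) was lowest in replicate 1, and Kcnj1, Ptger3 and Wnk4 had the same value in every array. The 7 venous or ascending vasa recta genes summed to 23099.5, 21896.6 and 19786.4 units. Of these Aplnr (12.55, 11.82 and 10.99) and Flt4 were highest in replicate 1. Vcam1 (10.21, 11.17 and 10.82) and Emcn were highest in replicate 2, and Vwf (9.15, 9.30 and 9.33) in replicate 3. Nr2f2 and Plvap had the same value in every array. The pan-endothelial sum was also highest in replicate 1 (71622, 63184 and 64279 units). Over its 16 genes, replicate 1 exceeded the mean of the other arrays by a median of 0.15 log2 units. Erg and Emcn were highest in replicate 2, Sox17 and Sox18 lowest in replicate 3, and Egfl7 and Cldn5 did not vary. The remaining pan-endothelial genes were highest in replicate 1.

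The 12 myeloid genes summed to 4584, 8164 and 4970 units, with Cd74 at 9.27, 10.93 and 9.53, the collecting duct genes to 3925, 4518 and 3566, and the arterial genes to 10296, 13859 and 11798. These sums were highest in replicate 2, where none of the 6 guidance genes with the widest spread was highest. Within these lists, H2-Eb1, Jag1 and Bmx were highest in replicate 3, and Hey1, Krt8 and Atp6v1g3 in replicate 1. Atp6v0d2 was lowest in replicate 2, Krt18 in replicate 1 and Sox17 in replicate 3. Ptprc, Adgre1, C1qa, C1qb, Cd68, Itgam, Avpr2, Scnn1g, Hsd11b2, Slc4a1, Hey2 and Dll4 had the same value in every array. The other genes of these lists were highest in replicate 2. The 6 lymphatic genes summed to 2230, 1960 and 2376 units. Of these Reln (8.59, 8.59 and 9.15) and Lyve1 (7.91, 7.91 and 8.05) were highest in replicate 3, as were Efna5 and Robo3, whereas Flt4 (9.67, 9.22 and 9.56) was highest in replicate 1, Prox1 was equal in replicates 1 and 3, and Pdpn and Mmrn1 did not vary. The part of these cells in the spread of the guidance genes was not tested. Without replicate 1, Unc5c lay at 8.73 and was above the limit (adjusted p = 0.0333 by limma).

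**Figure D4:**
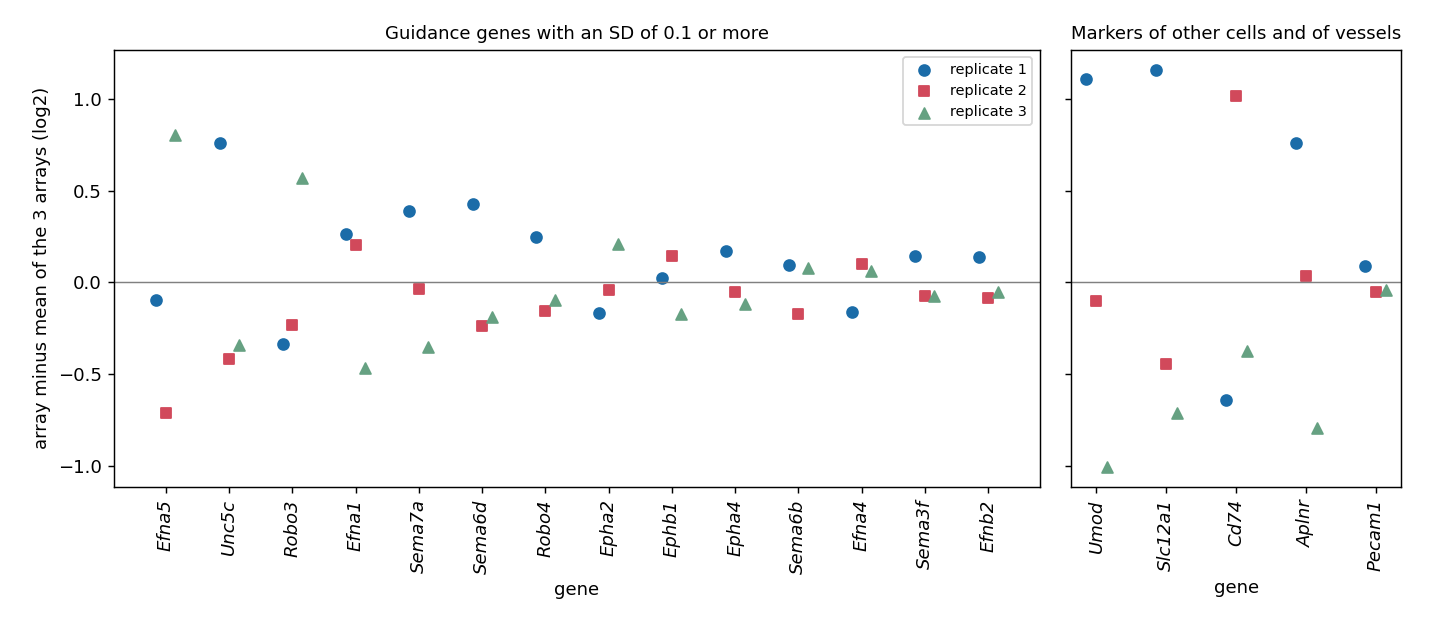
Deviation of each array from the mean of the 3 arrays (y axis, log2) for the 14 guidance genes with an SD of 0.1 or more and for 5 marker genes (x axis), with 1 point per array. Replicate 1 was highest for Unc5c, Sema7a and Sema6d, and for the markers Umod, Slc12a1, Aplnr and Pecam1. Replicate 2 was highest for Cd74, and replicate 3 for Efna5 and Robo3.

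Some members lie next to each other in the genome. In the RefSeq annotation of GRCm38.p6, with only coding genes counted, Robo3 and Robo4 are neighbours, as are Robo1 and Robo2, Sema3a and Sema3d, and Efna1, Efna3 and Efna4. The calls agreed within Robo3 and Robo4 (above), Robo1 and Robo2 (below) and Sema3a and Sema3d (above). They differed within the ephrin-A group, where Efna1 was above, Efna3 below and Efna4 not told from the limit.

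Promoters of the members were rich in G and C. RefSeq windows from 250 bases before to 50 after the start (GRCm38.p6) matched 56 members with 72 windows, whose median GC content was 64.2%. It was 52.7% over all 32851 windows, which belong to 27025 RefSeq genes. That set is not the 19938 genes measured here, so the contrast is not between members and other measured genes alone. The GC box letters GGGCGG, read on both strands, stood in 70.8% of the members' windows and in 35.7% of all windows. They were in 32 of 42 windows of members above the background limit (76.2%) and in 17 of 26 of those below it (65.4%). The ETS letters CCGGAAG were in 2 member windows (2.78%, against 8.86% of all windows), those of Ephb6 and Plxnb1, TATAAA in 2 (2.78%, against 13.6%), and the forkhead letters TGTTTAC in 0 of 72 (3.65% of all windows). Each motif was searched on its own, so matches of different motifs may overlap, and a match does not show binding.

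The windows of Efnb2 (chr8:8661193-8661492, minus strand) and Robo4 (chr9:37401722-37402021, plus strand) are shown because both genes were above the limit in every array while their promoters differ in make-up. Capitals mark GGGCGG or CCGGAAG on either strand.
Efnb2: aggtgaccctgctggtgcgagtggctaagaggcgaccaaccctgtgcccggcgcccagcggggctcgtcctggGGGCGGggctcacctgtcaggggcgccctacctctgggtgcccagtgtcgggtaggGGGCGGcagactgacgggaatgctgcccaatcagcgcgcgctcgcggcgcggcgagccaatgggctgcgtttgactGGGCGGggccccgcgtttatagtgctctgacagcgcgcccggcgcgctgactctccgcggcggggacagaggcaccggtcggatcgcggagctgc
Robo4: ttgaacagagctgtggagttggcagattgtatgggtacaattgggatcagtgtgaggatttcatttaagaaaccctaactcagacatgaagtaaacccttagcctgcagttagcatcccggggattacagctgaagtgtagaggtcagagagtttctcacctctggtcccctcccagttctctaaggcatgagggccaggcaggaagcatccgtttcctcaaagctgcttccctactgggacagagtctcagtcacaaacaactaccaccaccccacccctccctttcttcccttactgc
The Efnb2 window has a GC content of 72.3% and holds the GC box, and also TATAAA, which is not capitalised. The Robo4 window has 50.3% and holds none of the 4 motifs as spelled here. Other spellings of an ETS site were not counted over the windows. The paper lists Robo4 among genes with a conserved ETS site of the form RYTTCCTG, so the lack of CCGGAAG does not mean a lack of ETS sites.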

How the data were processed

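RNA of sorted medullary endothelial cells went through 1 round of NuGEN WT-Ovation Pico amplification and was hybridised, with biotin label, to Affymetrix Mouse Gene 1.0 ST arrays, which read 1 colour. The deposited values are log2 levels, 1 for each probe set and array. Affymetrix Expression Console is named in the labels as the authors' software, and the text of the study names RMA in GeneSpring, which corrects background, brings arrays to 1 distribution and summarises probes. Values ran from 3.55 to 14.4, which fits a log2 scale. The sources used here give neither the genome build nor whether 100 units on this scale equals the study's raw level of 100. Array medians differed by at most 0.03. Depth has no counterpart on arrays, whose number limits the precision. No probe-level files, scan dates or columns of other samples were used here, which leaves probe-wise detection and scan batches unexamined.

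Of 35557 probe sets, 21789 named 1 gene, 1621 several and 12147 none in the platform annotation. Entrez identifiers matched 21698 of these probe sets to RefSeq symbols (GRCm38.p6). An intercept-only limma model of level minus limit (lmFit, eBayes, two-sided) was run for 19938 genes. The model was also tried on simulated data, but no outcome is given here. That trial therefore does not vouch for the calls, least of all for genes with equal values between arrays. The fit was repeated with the prior variance from genes with 3 different values. Alternatives changed the limits, the probe set rule, the normalization, the probe sets naming several genes, and left out each array.

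Members and lists were chosen with earlier results of these data known. The rule for genes with values in each array took members by role, members under 100 units, those with an SD of 0.3 or more and those whose probe sets lay on different sides of the background limit. The first members of each partner list were named, with up to 3 on the other side of the limit. Itga1, Itgb1 and the hosted microRNAs, the motifs and the windows shown were chosen after their values were seen. Protein features, planned for this work, were not analysed here. Software was limma 3.58.1 under R 4.3.3, and pandas 2.3.3, numpy 2.4.6 and matplotlib 3.10.9 under Python 3.11.15.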

Additional observations from a re-analysis of the deposited data

How the results depend on the processing

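Counts over all members moved by less than 1.5 times under every alternative run except the 99th percentile of the sensory receptor probe sets, at which 24 members were above the limit and 38 below it. With 1 array left out, 62 members had 100 units or more in the arrays kept, 55 to 60 were above 100 by limma, 33 to 35 above the background limit and 21 to 22 below it, and 64 to 69 partner genes were above it. At the 99th percentile 3 Eph receptor genes, 1 netrin, 0 Slit and 0 Unc5 genes were above, and at the 90th percentile 4 netrin, 2 Slit and 4 Unc5 genes. Without replicate 1 or replicate 2, 1 Robo gene was above the limit, since Robo3 lost its call, and without replicate 3 there were 2. The probe set with the lowest mean and the mean over probe sets each left 1 Unc5 gene above, because Unc5d, at 7.34 and 7.80, turned to below the limit.

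With 1 array left out, the calls of Sema3b, Sema5a, Sema6b, Sema6d, Sema7a, Epha2, Epha8, Ephb1, Efna1 and Robo3 were lost in at least 1 case (adjusted p from 0.0523 to 0.116 by limma), Sema4g was called above without replicate 1, and Unc5c was called above under quantile normalization, median centring and without replicate 1. A fit on 2 arrays has little power, so a lost call there says little. An SD of 0.3 or more was found in 6 members under either normalization as well, and Sema6c lost its call below the limit under both (adjusted p = 0.0777 and 0.0861 by limma). The precision is limited by the number of arrays and by the 46.2% of members that carry the same value in all of them. No paired analysis was possible because there is only 1 group.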
